A study of Homo sapiens with 4 samples.

Results

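Very long loops are here the H3K27ac HiChIP loops of M14 melanoma cells whose anchor midpoints lay at least 1 Mb and under 2 Mb apart on hg19. They were taken from 2 loop lists by distance alone, and each loop joined a pair of 5 kb anchors. The WT list held 172 such loops among 27289, and the STAG2-KD list held 197 among 25621. Together they were 316 distinct loops among 42529. Of these, 53 had the same 5 kb bins at both anchors in both lists and were called shared, while 119 occurred in WT alone (WT-only) and 144 in STAG2-KD alone (STAG2-KD-only). Loops of all distances are the background for these counts, and 62.0% of the WT list and 59.5% of the STAG2-KD list had no such match.

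M14, a human melanoma line, carried a short hairpin RNA against STAG2 that doxycycline switches on. The STAG2-KD cells were grown with doxycycline for 5 days and the WT cells without it, and both groups carried the same hairpin construct under puromycin selection. The labels named 4 samples, 2 per group, and 1 loop list per group was analysed. An effect of doxycycline and an effect of STAG2 loss cannot be told apart in this design, and the lists hold no value from which the STAG2 level could be checked. With 1 list per group there was no replicate check, no test was made, and the intervals below are exact binomial (Clopper-Pearson) intervals at 95% that cover the counting of loops only. These intervals treat loops as independent, which neighbouring loops are not, so they are too narrow to compare the states. The read depth behind a loop was unknown.

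HiChIP ligates stretches of chromatin that touch in the nucleus and pulls down the ligated fragments with an antibody. Acetylation of histone H3 at lysine 27 marks active promoters and enhancers, so a loop here is a frequent contact in which an active element takes part. Cohesin, a ring that contains either STAG2 or its paralog STAG1, extrudes chromatin into loops and halts at CTCF bound in a given orientation. Contacts become rarer as the distance along a chromosome grows. Contacts over a megabase are known for genes with remote enhancers and for regions of like activity that gather in the nucleus, such as the clustered replication-dependent histone genes, which are transcribed together in a nuclear body during DNA replication.

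Promoters of the histone genes are shown because pairs of them made up a large group of the loops. At anchors of very long loops lay the transcript starts of 29 replication-dependent histone genes, all on chromosome 6, and 26 of them had a promoter in RefSeq (GRCh38.p14). Below are the 250 bases before the start of 5 of the 8 H2B genes, on the strand of the gene. Capitals mark the octamer ATTTGCAT, a binding motif of OCT1, and the TATA motif TATAAA, each on either strand. H2BC9 and H2BC10 lay at the left ends of the histone loops, H2BC13 and H2BC17 at their right ends and H2BC12 between them.
H2BC9 promoter: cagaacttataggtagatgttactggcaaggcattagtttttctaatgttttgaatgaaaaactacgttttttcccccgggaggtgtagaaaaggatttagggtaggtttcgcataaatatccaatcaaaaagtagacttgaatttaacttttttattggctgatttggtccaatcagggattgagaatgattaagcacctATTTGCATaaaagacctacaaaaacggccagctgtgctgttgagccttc
H2BC10 promoter: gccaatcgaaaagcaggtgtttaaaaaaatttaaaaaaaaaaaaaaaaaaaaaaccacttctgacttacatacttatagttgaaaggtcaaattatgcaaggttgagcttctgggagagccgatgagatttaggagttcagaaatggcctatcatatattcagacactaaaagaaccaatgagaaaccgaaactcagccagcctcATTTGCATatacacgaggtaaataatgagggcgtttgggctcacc
H2BC12 promoter: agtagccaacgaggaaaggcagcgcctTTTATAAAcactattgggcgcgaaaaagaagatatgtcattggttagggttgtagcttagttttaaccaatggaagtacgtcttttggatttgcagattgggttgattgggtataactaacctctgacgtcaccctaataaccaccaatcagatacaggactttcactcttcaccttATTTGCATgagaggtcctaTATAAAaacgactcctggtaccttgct
H2BC13 promoter: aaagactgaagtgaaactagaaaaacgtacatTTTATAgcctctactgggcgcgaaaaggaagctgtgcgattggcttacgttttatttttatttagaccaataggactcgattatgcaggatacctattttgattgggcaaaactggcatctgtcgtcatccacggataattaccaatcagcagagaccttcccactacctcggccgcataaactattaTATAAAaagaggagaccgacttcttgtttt
H2BC17 promoter: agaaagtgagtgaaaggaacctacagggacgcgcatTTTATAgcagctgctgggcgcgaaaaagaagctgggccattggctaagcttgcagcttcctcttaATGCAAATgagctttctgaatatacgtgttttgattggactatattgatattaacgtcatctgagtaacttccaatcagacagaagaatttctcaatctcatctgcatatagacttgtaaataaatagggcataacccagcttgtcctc
The octamer was found in 6 of the 8 H2B and 5 of the 6 H2A promoters. It was found in 1 of 7 H3, 0 of 3 H1 and 0 of 2 H4 promoters. Of all 26246 promoters of the same length 1.65% had it. TATAAA was found in 6 of the 8 H2B promoters and in 11.2% of all promoters.

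Repeated sequence is shown because both anchors of a few of the longest loops held copies of it. The loop of 1990 kb between ARHGAP11B and ARHGAP11A, a human-specific partial copy and its parent gene, was shared by both lists, and its anchors had 64.2% of their 31-base words in common. The shared loop of 1640 kb between the pseudogenes SDHAP1 and SDHAP4 had 42.2% in common. Below is, for each pair, a stretch of 120 bases outside exons in hg19, with capitals at the 2 bases that differ between the copies.
SDHAP1, chr3:195713237-195713356, plus strand: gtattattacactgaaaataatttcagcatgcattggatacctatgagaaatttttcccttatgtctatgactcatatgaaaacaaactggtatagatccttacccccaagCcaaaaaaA
SDHAP4, chr3:197350830-197350949, plus strand: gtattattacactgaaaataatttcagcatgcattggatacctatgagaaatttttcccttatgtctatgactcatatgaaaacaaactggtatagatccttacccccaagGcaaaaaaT
ARHGAP11B, chr15:30915820-30915939, plus strand: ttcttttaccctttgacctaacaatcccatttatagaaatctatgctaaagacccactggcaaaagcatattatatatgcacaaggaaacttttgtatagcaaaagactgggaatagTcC
ARHGAP11A, chr15:32905217-32905336, plus strand: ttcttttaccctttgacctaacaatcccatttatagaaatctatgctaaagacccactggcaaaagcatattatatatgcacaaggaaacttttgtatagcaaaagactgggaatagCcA
At least 2% of words were in common for 3 WT loops (1.74%, 0.361 to 5.01) and 5 STAG2-KD loops (2.54%, 0.829 to 5.82), against 0.110% and 0.192% of loops under 500 kb. Whether reads were placed on the wrong copy was not tested. Without these loops the lists held 169 and 192 very long loops.

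Matches to a strict core consensus of the CTCF motif are shown as the sequence marks at which cohesin is known to halt. The matches at 6 anchors are printed below from hg19, with genes named for their place only, on the strand of the motif and with the core in capitals.
MATN1, chr1:31192232-31192261, plus strand: cgctttggCCACCAGATGGCAGccgaagct
LINC02566, chr12:23358302-23358331, plus strand: cgtgatgaCCACTAGATGGCAGatgcacca
near LOXL1, chr15:74257243-74257272, minus strand: ggcatttaCCACCAGGGGGCGGgcaagagc
TPRG1, chr3:188672574-188672603, minus strand: gctccattCCAGCAGAGGGCGCtcttggag
ABT1, chr6:26596162-26596191, minus strand: gggcgcgaCCAGCAGGGGGCGCcgtcccca
SEMA3D, chr7:84652572-84652601, minus strand: tactcttaCCACCAGGGGGCAGgtcatgct
No loop had a match at both anchors, with 0 of 172 in WT and 0 of 197 after knockdown. By the exact intervals a count of 0 allows a share of up to 2.12% and 1.86%. A rougher limit, 3 counts of the total, is lower at 1.74% and 1.52%. Among loops of 500 kb to under 1 Mb, 1 of 845 in WT and 4 of 990 in STAG2-KD had one at both. Under 500 kb the shares were 0.126% in WT and 0.180% in STAG2-KD. With shares this low, the counts of 0 do not set very long loops apart. A match at 1 or both anchors was present in 8.14% of WT (4.52 to 13.3) and 8.12% of STAG2-KD very long loops (4.71 to 12.9), against 5.50% and 5.44% of loops under 500 kb. A single anchor lay at 12 of the 14 WT and 9 of the 16 STAG2-KD loops with a match. Of all 5 kb bins of the genome 0.940% held a match. The consensus misses weaker sites, so these counts say nothing about CTCF binding.

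The first question was how many contacts of this length each state held. Very long loops were 0.630% of the WT list (0.540 to 0.731) and 0.769% after knockdown (0.666 to 0.884), and these intervals overlap. Their median distance was 1295 kb in WT (quartiles 1090 and 1556 kb) and 1270 kb in STAG2-KD (1075 and 1605 kb). The medians were 1325 kb for shared, 1295 kb for WT-only and 1255 kb for STAG2-KD-only loops, so the sets differed by far less than their spread. At the limit itself, 3 WT and 3 STAG2-KD loops spanned exactly 1000 kb, while the bin just below it, left out here, held 3 and 5 loops.

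The loops were concentrated on chromosomes 6 and 8. These carried 90 of the 172 WT loops (52.3%, 44.6 to 60.0) and 84 of the 197 STAG2-KD loops (42.6%, 35.6 to 49.9), against 9.98% and 9.16% of the loops of all distances. On the other 20 chromosomes the order of the lists was the reverse, with 82 loops in WT and 113 after knockdown. Of these 19 were shared, 63 WT-only and 94 STAG2-KD-only. STAG2-KD held more on 11 of these chromosomes and WT on 6. Chromosome 3 had 4 WT and 15 STAG2-KD loops, chromosome 7 had 0 and 8, chromosome 13 had 1 and 6, and chromosome 14 had none in either list.

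**Figure D1:**
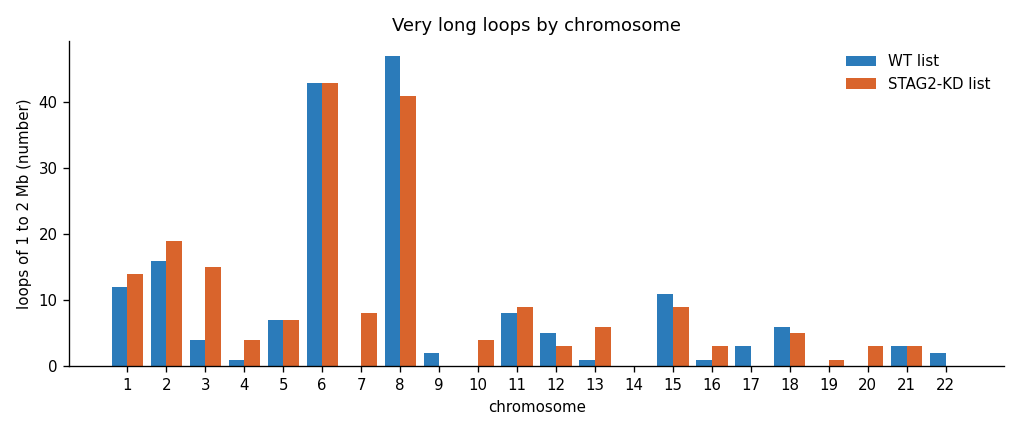
Number of loops of 1 to 2 Mb on each chromosome in the WT list (blue) and the STAG2-KD list (orange), 1 list per group and no error bars. Chromosomes 6 and 8 stand above the rest with 43 and 47 WT loops and 43 and 41 STAG2-KD loops, and chromosome 7 has 8 STAG2-KD loops and no WT loop.

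Loops were next gathered into loci, joining loops whenever any of their anchors lay within 50 kb. The 316 loops fell into 101 loci, 62 of them with 1 loop. Very long loops of both lists were present in 27 loci, of WT alone in 25 and of STAG2-KD alone in 49. Only 4 of the 25 and 14 of the 49 held 2 or more loops. No such share of loci was computed for shorter loops, so these counts have no background and cannot be called particular to very long loops. In the 27 common loci WT had 140 loops and STAG2-KD had 125, so the larger STAG2-KD count came from the other loci, where 72 STAG2-KD loops stood against 32 WT loops. Of the loci used in a list, 48.1% of the WT loci (34.0 to 62.4, n = 52) and 64.5% of the STAG2-KD loci (52.7 to 75.1, n = 76) had no very long loop in the other list, and these intervals overlap. With a joining distance of 100 kb the numbers were 24 and 49, and without chromosomes 6 and 8 they were 24 and 47.

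**Figure D2:**
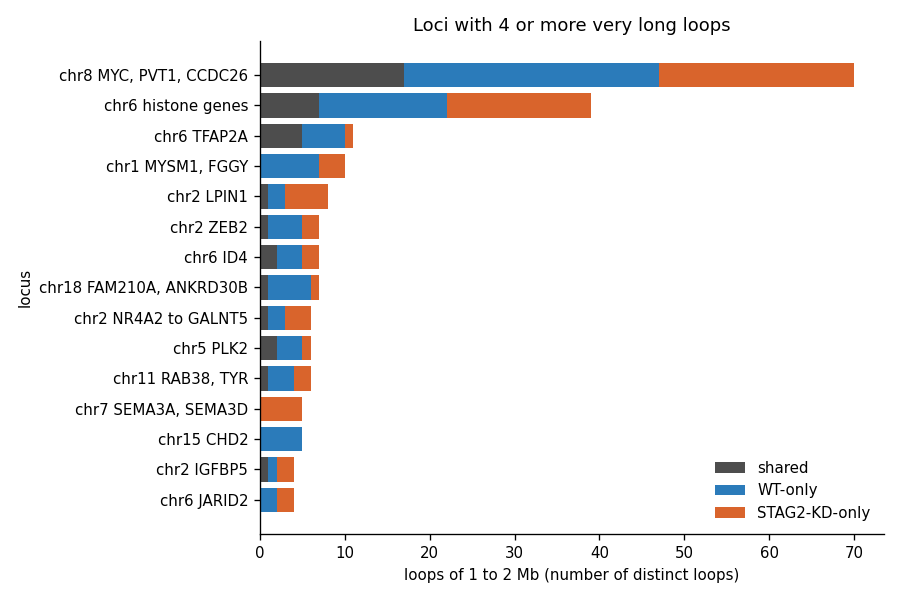
Distinct loops of 1 to 2 Mb in the 15 loci with 4 or more, as stacked bars of shared (grey), WT-only (blue) and STAG2-KD-only (orange) loops. The MYC locus has 70 and the histone locus 39, all others have 11 or fewer, and the SEMA3A and SEMA3D bar is STAG2-KD-only while the CHD2 bar is WT-only.

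The histone genes formed the second largest locus, from 26020001 to 28950000 on chromosome 6. It held 39 loops, 22 in the WT list and 24 in the other, and 7 were shared, 15 WT-only and 17 STAG2-KD-only. A histone gene start lay at both anchors of 27 of these loops, at 1 anchor of 11 and at neither of 1. All histone-to-histone loops among the very long loops were in this locus. The densest set, 27 loops of 1495 to 1735 kb, joined the genes from 26120001 to 26285000 with those from 27775001 to 27865000. It held 3 shared, 10 WT-only and 14 STAG2-KD-only loops, so the same gene blocks met in both lists while the exact bins mostly differed. Within this set no loop had more than 1.09% of 31-base words in common between its anchors.

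The busiest histone anchor, from 27775001 to 27780000, held the starts of H2AC13, H2BC13 and H3C10, which encode core histones H2A, H2B and H3. It carried 9 very long loops in WT and 10 in STAG2-KD, 15 distinct. Its 4 shared loops reached H3C3, H2AC8, the anchor of H2BC10 and H3C8, and the long noncoding RNA gene LINC01623. H1-5, a linker histone gene at the anchor from 27835001 to 27840000, had 4 loops in each list, and its shared loops reached the anchor of H2AC4 and H3C2 at 1805 kb and H1-3, another linker histone gene, at 1600 kb. The anchor of H2AC12 and H2BC12, whose promoter is printed above, had a shared loop of 1080 kb to H2AC4 and H3C2. The loop of H2BC9 and H3C7 to H2AC17, H2BC17 and H3C12 was STAG2-KD-only. A bin of H2BC6 from 26170001 was joined to the H2BC13 anchor in STAG2-KD alone, and a nearby H2BC6 bin from 26180001 in WT alone. The loop of H2BC4 and H2AC6 to H2BC13 was WT-only. Outside the histone genes, ABT1, a regulator of basal transcription, was joined to the H2BC13 anchor in WT alone at 1180 kb. ABT1, H2AC12 and H2BC12 were chosen after their values were seen.

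The largest locus lay around MYC, the transcription factor of cell growth, from 127845001 to 130740000 on chromosome 8. It held 70 loops, 47 in the WT list and 40 in the other. Of the 70, 17 were shared, 30 WT-only and 23 STAG2-KD-only. The start of MYC lay at 14 of them, and 12 of these ended in CCDC26, a long noncoding RNA gene downstream. PVT1, the long noncoding RNA gene beside MYC, was at an anchor of 39 further loops, 34 of which ended in CCDC26. In all, CCDC26 was at an anchor of 63 of the 70 loops.

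The anchor with the most very long loops in either list, from 130695001 to 130700000, overlapped CCDC26 and held no protein-coding start. It had 22 loops in WT and 16 after knockdown, 31 distinct, and they spanned 1020 to 1980 kb. Of the 31, 7 were shared, 15 WT-only and 9 STAG2-KD-only. The MYC anchor, from 128745001 to 128750000, had 12 loops in WT and 9 in STAG2-KD. It held the CTCF consensus match that lay at most of the loops with a match. Of the 14 distinct MYC loops 7 were shared, 5 WT-only and 2 STAG2-KD-only, while PVT1 had 7 shared, 14 WT-only and 18 STAG2-KD-only loops. An anchor in PVT1 from 128820001 to 128825000, chosen after its values were seen, had 0 very long loops in WT and 4 in STAG2-KD, beside 6 and 8 shorter loops. The loops of 1950 and 1965 kb from MYC were shared and the longest, at 1990 kb, was WT-only.

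The third largest locus lay at TFAP2A, a transcription factor of the neural crest and the melanocyte lineage, where 11 loops of 1160 to 1720 kb linked the gene region to the stretch around the noncoding RNA gene HULC. WT had 10 of them, STAG2-KD had 6 and 5 were shared. The 3 loops that ended in the bin with the TFAP2A start, at 1160, 1325 and 1430 kb, were all shared. GCNT2, which encodes a branching enzyme of the I blood group antigen, was reached from the same region in WT alone at 1435 kb and was chosen after its values were seen. At ID4, an inhibitor of basic helix-loop-helix factors, both loops on the gene start, at 1250 and 1300 kb, were WT-only. The 2 shared loops of that locus ended 57400 bases from the start.

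At ZEB2, a repressor that takes part in melanocyte differentiation, 1 loop of 1405 kb on the start was WT-only, and the locus as a whole had 5 WT and 3 STAG2-KD loops. LPIN1, a phosphatidate phosphatase of lipid synthesis, had 1 STAG2-KD-only loop of 1225 kb on its start. Its locus had 3 loops in WT and 6 after knockdown, and 1 was shared. TRIB2, a pseudokinase gene inside the span of that locus, had 1 WT-only loop of 1030 kb to LPIN1, which was counted apart because neither of its anchors lay within 50 kb of an anchor there. IGFBP5, an insulin-like growth factor binding protein, had 1 shared loop of 1015 kb and 1 STAG2-KD-only loop of 1000 kb, both to the noncoding RNA gene DIRC3. On chromosome 1, 9 loops of 1000 to 1075 kb ended in FGGY, a sugar kinase gene, and 7 were WT-only, 2 STAG2-KD-only and none shared. A start of MYSM1, a histone H2A deubiquitinase gene, lay at the other anchor of 4 of them, all WT-only, and that anchor held no protein-coding start in the other 5. Of these 9 loops 8 had a loop of the other list within 50 kb at both anchors, so the bins differed more than the region.

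**Figure D3:**
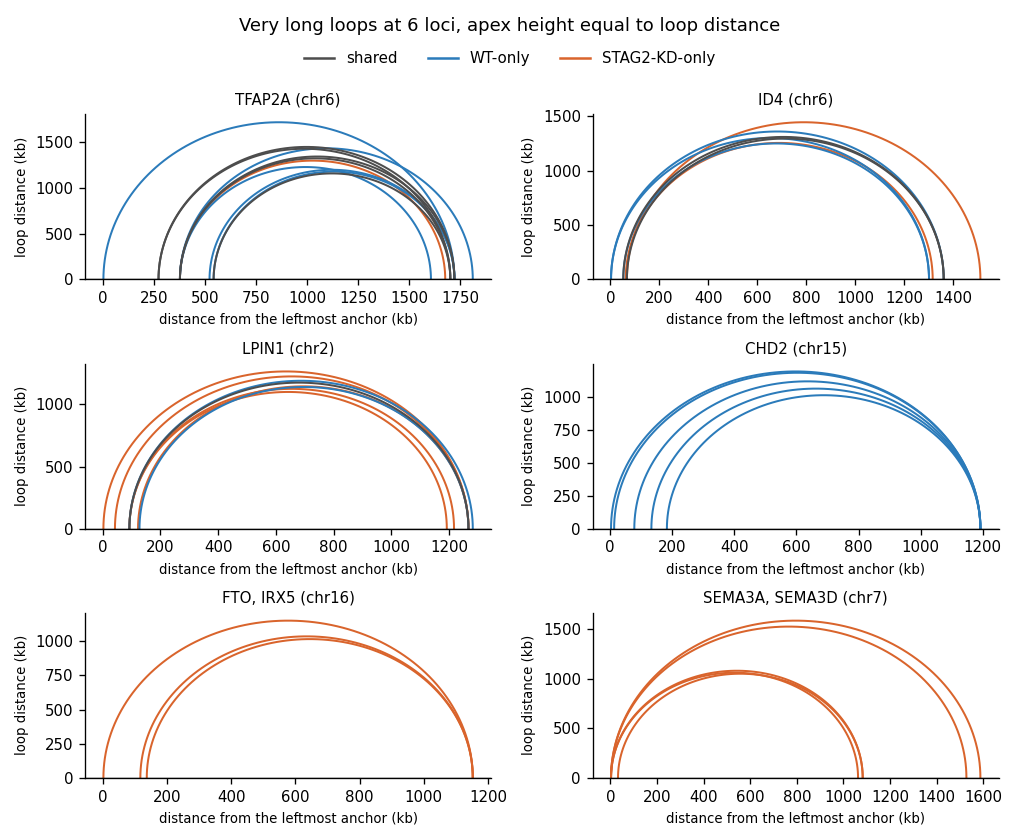
Very long loops at 6 loci drawn as arcs between their anchors, with distance from the leftmost anchor in kb on the horizontal axis and apex height equal to the loop distance in kb. Grey arcs are shared, blue WT-only and orange STAG2-KD-only. TFAP2A has 5 shared arcs, CHD2 has 5 WT-only arcs that meet at 1 anchor, and IRX5 and the semaphorin locus have STAG2-KD-only arcs.

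Loci used by 1 list alone and holding 3 or more loops were 7 in STAG2-KD and 1 in WT, and they were chosen after their values were seen. On chromosome 7, 5 STAG2-KD loops of 1050 to 1585 kb ran from the region of SEMA3A to SEMA3D and beyond, genes of secreted semaphorins that guide axons and neural crest cells. Their 6 anchors had 11 ends of loops under 1 Mb in STAG2-KD and 4 in WT, and 3 of the anchors occurred in the WT list. On chromosome 16, 3 loops of 1015, 1035 and 1150 kb ran from FTO, an RNA demethylase gene, to the start of IRX5, a homeobox factor. Only 1 of their 4 anchors occurred in the WT list. On chromosome 6, 3 loops of 1015 to 1035 kb ended 1019 to 3982 bases from the start of SOX4, a transcription factor of progenitor cells. Their anchors had 12 ends of loops under 1 Mb in WT and 5 in STAG2-KD.

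The remaining STAG2-KD loci of this kind were on chromosomes 1, 3 and 13. On chromosome 1, 3 loops of 1035 to 1075 kb joined KIRREL1, a cell adhesion gene, to IFI16 and AIM2, interferon-inducible sensors of DNA. Here the WT list had a loop of 990 kb with each anchor within 50 kb, so the status of this locus rested on the distance limit. It was the single one among the 49 STAG2-KD loci for which the WT list had such a loop of any distance, and among the 25 WT loci there was 0. Elsewhere on chromosome 1, loops of 1010 and 1635 kb ended at MATN1, a cartilage matrix gene, and 1 of 1050 kb at LAPTM5, a lysosomal membrane protein gene. On chromosome 3, 1 of 3 loops ended at the starts of CIP2A, an inhibitor of the phosphatase PP2A, and DZIP3. On chromosome 13, 3 loops of 1135 to 1210 kb ended 35837 to 65837 bases from COL4A1, a basement membrane collagen gene. The WT locus was on chromosome 15, where 5 loops of 1010 to 1190 kb ran from CHD2, a chromatin remodeller gene, and its upstream noncoding gene CHASERR to an anchor at LINC01579 and LINC01581. That anchor had 5 very long loops in WT and 0 in STAG2-KD, and 9 and 5 shorter loops.

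The next comparison asked how far loops that were private to a list were private in place. Shared loops made up 30.8% of the WT (24.0 to 38.3) and 26.9% of the STAG2-KD very long loops (20.8 to 33.7). The shares were 32.0% and 27.3% for loops of 500 kb to under 1 Mb and 38.3% and 41.2% for loops under 500 kb. When each anchor could shift by up to 10 kb the very long loops matched at 44.8% and 37.1%. At 50 kb they matched at 64.0% of WT (56.3 to 71.1) and 53.8% of STAG2-KD (46.6 to 60.9). Sharing was higher on chromosomes 6 and 8, at 37.8% of WT and 40.5% of STAG2-KD loops, than on the others, at 23.2% and 16.8%. Loops in the first 50% of each chromosome's lines were shared at 40.0% in WT and 38.8% in STAG2-KD, and those in the last 50% at 25.2% and 17.9%. What orders the lines was not stated.

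**Figure D4:**
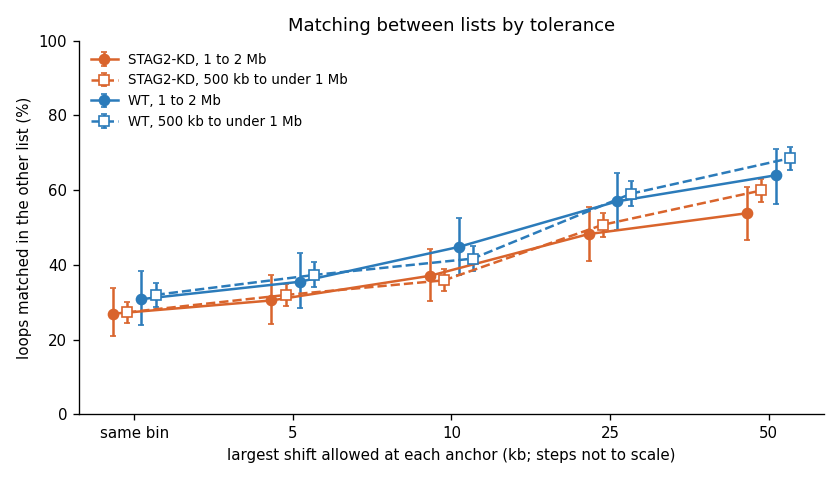
Share of loops (%) matched in the other list against the shift allowed at each anchor (kb), for WT (blue) and STAG2-KD (orange) loops of 1 to 2 Mb (filled circles) and of 500 kb to under 1 Mb (open squares), with 95% Clopper-Pearson intervals. Both classes rise alike, for WT very long loops from 30.8% to 64.0%, and the intervals of the classes overlap at each shift within a list.

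Anchors of private loops were mostly present in the other list. Among very long loops seen in WT alone, 68.9% had each of their anchors in some STAG2-KD loop (59.8 to 77.1), 26.9% had 1 anchor there and 4.20% none. Among those seen in STAG2-KD alone, the WT list used both anchors of 58.3% (49.8 to 66.5), 1 anchor of 37.5% and none of 4.17%. These shares were above those of private loops under 500 kb, 41.5% and 42.3%, and the intervals did not overlap. Anchors of very long loops were busier, with 10 or more loops under 500 kb at 9.35% in WT and 7.43% in STAG2-KD. For anchors of loops under 500 kb this was 1.74% and 1.44%. An anchor also counted once for each of its loops, and whether these made the difference was not tested. Without chromosomes 6 and 8 both anchors of private very long loops were in the other list for 71.4% in WT but 50% in STAG2-KD, and no interval was computed for these. Loops of 500 kb to under 1 Mb had 56.3% in WT (52.2 to 60.4) and 52.9% in STAG2-KD (49.2 to 56.6), and these intervals overlapped those of the very long loops. Fewer anchors had a very long loop in the other list. Both did so for 19.3% of the WT-only set (12.7 to 27.6) and 12.5% of the STAG2-KD-only set (7.58 to 19.0), and neither did for 31.1% (22.9 to 40.2) and 55.6% (47.1 to 63.8). The last pair of intervals did not overlap, but they treat neighbouring loops as independent. Chromosomes 6 and 8 held 47.1% of the WT-only and 34.7% of the STAG2-KD-only loops, and whether this made the difference was not tested. Chains of shorter loops of the same list joined the anchors in 51.2% of WT and 47.7% of STAG2-KD loops, with a median of 3 steps.

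Loops also gathered into contact clusters, joining loops whose left anchors and right anchors were each within 50 kb. There were 173 clusters, 126 of 1 loop, 25 of 2 and 22 of 3 or more. The last held 140 of the 316 loops, 46.5% of the WT loops (38.9 to 54.3) and 44.2% of the STAG2-KD loops (37.1 to 51.4). Both lists took part in 18 of the 22, STAG2-KD alone in 4 and WT alone in 0. Among clusters of 1 loop, 16 were in both lists, 49 in WT and 61 in STAG2-KD. Without chromosomes 6 and 8 the shares in clusters of 3 or more were 20.7% and 21.2%.

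Promoter content was read from annotated transcript starts inside the anchors. In WT 20.9% of very long loops had a promoter at both anchors (15.1 to 27.8), 53.5% at 1 (45.7 to 61.1) and 25.6% at neither (19.2 to 32.8). In STAG2-KD the shares were 22.8% (17.2 to 29.3) at both and 46.2% (39.1 to 53.4) at 1, and 61 of the 197 loops (24.6 to 37.9%) had a promoter at neither. By status, both anchors had a promoter in 22.6% of the shared, 20.2% of the WT-only and 22.9% of the STAG2-KD-only set, within each other's intervals. Loops under 500 kb had promoters at both anchors in 25.4% and 25.2%, inside the intervals of the very long loops. They had a promoter at 1 anchor in 40.3% of WT (39.7 to 40.9) and 41.3% of STAG2-KD (40.7 to 41.9) and at neither in 34.4% (33.8 to 35.0) and 33.5% (32.9 to 34.1). The WT very long loops were above the first and below the second without overlap of the intervals, while the STAG2-KD intervals overlapped in both. The chromosome 8 anchor from 130695001, with 22 WT and 16 STAG2-KD very long loops, counted as a promoter only through a noncoding CCDC26 start. The shares at 1 or neither anchor were not recomputed without it. Of all 5 kb bins of the genome 16.3% held a transcript start. Of the 69 distinct loops with a promoter at both anchors, 30 were in the histone locus.

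**Figure D5:**
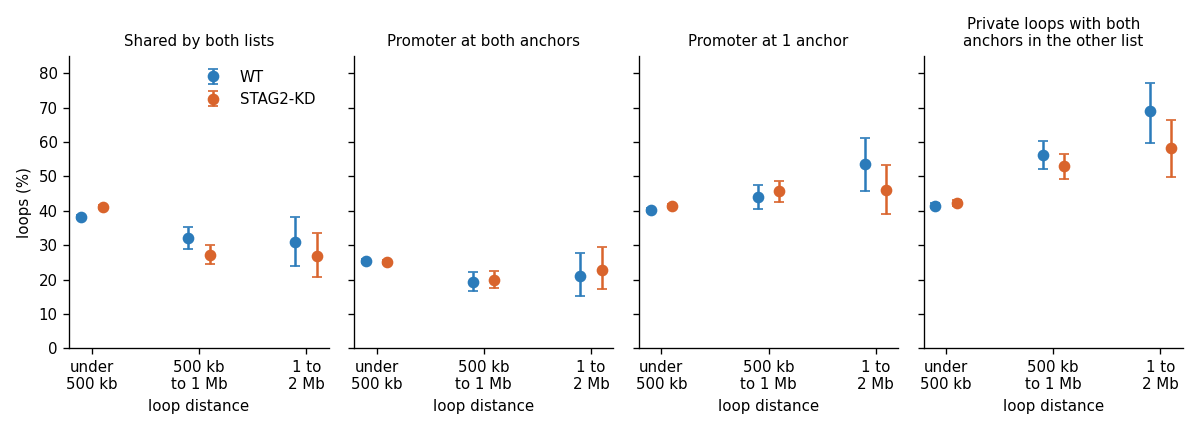
Share of loops (%) by distance class in WT (blue) and STAG2-KD (orange), with 95% Clopper-Pearson intervals, for shared loops, promoters at both anchors or at 1, and private loops with both anchors in the other list. The last is higher at 1 to 2 Mb than under 500 kb, at 68.9% against 41.5% in WT and 58.3% against 42.3% in STAG2-KD, while the promoter shares of the lists overlap at 1 to 2 Mb. Without chromosomes 6 and 8, not drawn, the share of such private loops at 1 to 2 Mb is 71.4% in WT and 50% in STAG2-KD.

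Protein-coding starts at both anchors were found in 9 shared, 14 WT-only and 20 STAG2-KD-only loops. Outside the histone locus they were 3, 4 and 8. The shared ones joined ARHGAP11B to ARHGAP11A, the mitochondrial tyrosine tRNA synthetase gene YARS2 to ALG10 at 1270 kb, and the galactokinase gene GALK2 to GABPB1, a subunit of the GABP transcription factor, at 1185 kb. Among the WT-only pairs was ENO1, the glycolytic enolase, with CTNNBIP1 at 1015 kb. Among the STAG2-KD-only pairs was BCL6, a transcriptional repressor, with LPP at 1015 kb, and BCL6 had 1 very long loop in WT and 3 in STAG2-KD. Except for the ARHGAP11 genes, the genes of these pairs were chosen after their values were seen.

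The anchors themselves lay less often in protein-coding genes than those of shorter loops. Of 214 WT and 269 STAG2-KD anchors, 41.1% and 50.6% overlapped a protein-coding gene, against 72.1% and 72.5% of anchors of loops under 500 kb. The class of 500 kb to under 1 Mb had 57.4% and 61.7%. A transcript start of any kind was about as frequent, at 40.2% and 40.1% against 41.6% and 41.3% under 500 kb. The MYC locus, with MYC as its only protein-coding start, gave 55 distinct anchors over both lists. Neither these shares nor the gene density below were recomputed without it. Their median GC content was 42.5% and 42.4%, below the 44.5% of the shortest class and above the 39.9% of all bins. They carried a median of 3 loops under 500 kb in WT and 2 in STAG2-KD, and 24.3% and 29.7% of them carried none. The lists had 95 of these anchors in common, and 27 WT and 21 STAG2-KD anchors had 3 or more very long loops. Between the anchors lay a median of 2 protein-coding genes in both lists. Per megabase that was 1.63 genes in WT and 1.82 in STAG2-KD, against 3.28 and 3.76 for loops of 500 kb to under 1 Mb.

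In all, 117 protein-coding genes had a start at an anchor of a very long loop, 67 in WT, 92 in STAG2-KD and 42 in both. They were 0.892% of the 7508 coding genes at any WT anchor and 1.30% of the 7079 at any STAG2-KD anchor. A list of 40 developmental and growth regulators known for distant enhancers was chosen with earlier results of these data known. Its counts therefore cannot show enrichment. Of the 40, 27 were at an anchor of any distance in each list. At a very long loop were 6 in WT and 5 in STAG2-KD, 8 in either. These were MYC, TFAP2A, ZEB2, ID4 and TRIB2, described above, and 3 more. RUNX1, a transcription factor of blood development, had 1 shared loop of 1040 kb. SOX6, a transcription factor of cartilage and neural crest, had 1 STAG2-KD-only loop of 1330 kb, and KLF6, a zinc finger factor, had 1 of 1640 kb.

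Of 19 melanocyte lineage genes in the annotation, a list likewise chosen with earlier results known, 16 had a start at some anchor in WT and 15 in STAG2-KD. At very long loops there were 3 in WT and 1 in STAG2-KD. TFAP2A was in both, ZEB2 and TYRP1 in WT alone. TYRP1, an enzyme of melanin synthesis, had 1 loop of 1140 kb to a bin without a gene. The start of TYR, the tyrosinase gene, was not at an anchor, but 3 loops of 1000 to 1030 kb joined RAB38, a GTPase of melanosome transport, to bins 3940 to 6043 bases from it. Of these 1 was shared, 1 WT-only and 1 STAG2-KD-only, and this pair was chosen after its values were seen. PLK2, a polo-like kinase, likewise chosen afterwards, had 3 WT and 2 STAG2-KD loops on its start, 1 of them shared, to a region with the melanoma-associated noncoding gene RMEL3.

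The longest loops outside the MYC and histone loci were the ARHGAP11 loop, a WT-only loop of 1900 kb at ADAMTS1, a secreted metalloprotease gene, and STAG2-KD-only loops on chromosomes 3 and 20. The loop of 1980 kb from 88250001 to 90235000 on chromosome 3 had no protein-coding start at either anchor. The loop of 1970 kb on the same chromosome joined the pseudogenes SDHAP2 and SDHAP4, whose anchors had 2.56% of 31-base words in common. The loop of 1940 kb on chromosome 20 started at ZFP64, a zinc finger gene, and ended 23837 bases from CYP24A1, the vitamin D catabolic enzyme, chosen after its values were seen. None of these STAG2-KD loops had a WT loop within 50 kb at both anchors.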

How the data were processed

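The labels name 4 H3K27ac HiChIP samples of M14 cells, 2 per group, and titles gave the groups. The deposited files are 1 loop list per group, filed under replicate 1. Whether a list merges replicates was not stated. According to the methods of the study, MboI cut the chromatin, and the authors aligned reads to hg19 with HiC-Pro and called loops with FitHiChIP. Tool versions are not given in the sources used here. The methods state a limit on the false discovery rate for a later differential analysis, and whether the deposited lists had passed it was not stated. The deposited lists give base pair positions in 3 columns without a header, with no count or score, so a contact just under the caller's limit cannot be told from an absent one.

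Positions were printed counted from 1. Distance was taken between midpoints of 5 kb anchors, and shared loops had the same bins. Gene models were those of GENCODE 44 on GRCh37, with promoters as any transcript start inside an anchor. Between anchors, 31-base words were compared. A strict CTCF consensus of 14 positions was matched on both strands. Functions were tested on simulated data, and 5 of 5 planted values were recovered. Python 3.11.15, numpy 2.4.6, scipy 1.17.1, pandas 2.3.3, networkx 3.6.1 and matplotlib 3.10.9 were used.

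Members and gene lists were chosen with earlier results of these data known. Named genes are protein-coding genes with a start at an anchor of the 10 largest contact clusters, of the 5 anchors per list with the most very long loops, or of the 5 longest loops of each status, and gene list members. Others are named as chosen afterwards or only to place an anchor. Alternatives were other distance limits, tolerances of 1, 2, 5 and 10 bins, joining distances of 25 and 100 kb, other promoter definitions, 1 loop per cluster, the earlier 50% of lines, and each chromosome left out in turn. Leaving out chromosomes 6 and 8 together, leaving out anchors with repeated sequence, and other joining distances for loci were added after the data had been seen.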

Additional observations from a re-analysis of the deposited data

How the results depend on the processing

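No paired analysis was possible because a group had 1 loop list, which also left no replicate to take out. For 14 results 140 values were computed under alternatives. Of these, 110 lay within the 95% interval of the value in the text (for counts, within a factor of 1.5) and 30 did not. All 88 values from leaving out 1 chromosome in turn were among the 110, so all 30 that moved came from the other alternatives. For counts this was fixed in advance. The largest chromosome held 47 of 172 WT and 43 of 197 STAG2-KD loops, too few for a factor of 1.5. In WT 5 chromosomes, and in STAG2-KD 4, held no very long loop, so leaving them out changed nothing. The 88 values ran from 125 to 172 WT loops, 154 to 197 STAG2-KD loops, and 27.9% to 33.1% and 23.1% to 29.0% shared.

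Values are given for WT and then STAG2-KD. Numbers of loops were lower and matches within more bins higher by construction. Shares with protein-coding starts or joining within 25 kb could likewise only fall. Those with starts within 5 kb or joining within 100 kb could only rise. For the shares without chromosomes 6 and 8 the cause was not tested. The numbers of loops were 100 and 118 at 1.2 Mb or more, 101 and 120 with 1 loop per cluster, 65 and 85 in the earlier 50% of lines, and 82 and 113 without chromosomes 6 and 8. Shared loops were 44.8% and 37.1% within 2 bins, 57.0% and 48.2% within 5 bins, 64.0% and 53.8% within 10 bins, and 23.2% and 16.8% without chromosomes 6 and 8. With 1 loop per cluster the values were 47.5% and 40%. These are the contact clusters that held loops of both lists, whether or not any bins were the same, which is a looser measure. Loops in clusters of 3 or more were 35.5% and 29.9% with 25 kb, 57.6% in WT with 100 kb, and 20.7% and 21.2% without chromosomes 6 and 8. Promoters at both anchors were at 13.4% and 14.7% with protein-coding starts and 37.8% and 34.5% with starts within 5 kb, where WT came above STAG2-KD. Without chromosomes 6 and 8 they were at 16.8% in STAG2-KD. Both anchors of STAG2-KD-only loops were in the WT list at 70.8% within 1 bin and 75% within 2.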
